A study of Mus musculus with 6 samples.

Results

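The genes described here are 9 enzymes of glutamine, glutamate and proline metabolism, *Gls2*, *Glud1*, *Glul*, *Got1*, *Got2*, *Gpt2*, *Aldh18a1*, *Pycr1* and *Oat*. They were chosen by name for their steps in glutaminolysis, transamination and proline synthesis, with earlier results of these data known. They are 9 of the 56748 genes in the deposited table, and all 9 were among the 14936 with enough counts to be tested. RNA-seq had been performed on naive CD4 cells, the precursors of helper T cells and Tregs, isolated from spleen and lymph nodes (splenocytes in the labels) of wild-type (WT) C57BL/6 mice 6 to 10 weeks old. Both groups were held for 3 days on plate-bound anti-CD3 with soluble anti-CD28, IL-2, TGF-β and antibodies to IFNγ and IL-4, the Treg polarizing conditions, and differed in the antisense oligonucleotide (ASO) added at 10 μM, which was scrambled in 3 libraries and directed at *Pgam* in 3 libraries. ASOs are short synthetic strands that pair with a matching RNA, and *Pgam* genes encode the glycolytic enzyme phosphoglycerate mutase. The comparison asks how expression differs when this enzyme is targeted during Treg polarization. Cells were unsorted, and bulk samples had over 70% viability according to the methods, so each value is a mean over all cells of a culture. In such bulk samples, fewer cells of a type and less RNA per cell cannot be told apart.

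Glutamine is the amino acid with which activated T cells carry nitrogen and feed carbon to the tricarboxylic acid cycle. Glutaminase removes its amide nitrogen to give glutamate, and glutamate dehydrogenase or a transaminase then turns glutamate into α-ketoglutarate. Glutamine synthetase makes glutamine from glutamate and ammonia. Glutamate is also reduced to pyrroline-5-carboxylate (P5C), from which proline is made, and ornithine reaches the same intermediate by another enzyme.

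Total estimated counts were 17588755, 18032805 and 16231127 in scrambled replicates 1, 2 and 3, and 16589933, 15860476 and 16803881 in *Pgam* ASO replicates 1, 2 and 3. Expression is given below as TMM-normalized CPM, which sets the counts of a gene against the scaled total of its library, always for replicates 1, 2 and 3 in that order. Fold changes are *Pgam* ASO over scrambled ASO from the quasi-likelihood test of edgeR, adjusted by the Benjamini-Hochberg method over all 14936 genes, and a gene was called at an adjusted p under 0.05. The study calls the replicates biological, and the sample labels do not say whether they came from separate animals, so the p-values measure only the spread between these samples.

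The targeted genes were looked at first. *Pgam1*, the main form outside muscle, had 600, 478 and 707 CPM in the scrambled libraries and 658, 661 and 707 CPM in the *Pgam* ASO libraries. *Pgam2*, the muscle form, had 5.23, 6.75 and 2.85 CPM against 2.98, 2.69 and 2.60 CPM. Both genes overlapped between the groups, and neither was called (log2 fold changes 0.18 and -0.84, edgeR adjusted p = 0.331 and 0.0854). *Pgam2* was called lower without scrambled replicate 3 (log2 fold change -1.11, edgeR adjusted p = 0.0144) and with no filter on low counts (edgeR adjusted p = 0.0292), and its log2 fold change ran from -1.11 to -0.56 with a library left out. *Pgam1* was called in no fit, and its log2 fold change stayed positive, from 0.047 to 0.33 with a library left out. A check of the labels by these RNA values thus shows no decrease of *Pgam1* and depends on the library and filter for *Pgam2*. Protein was not analysed here, and groups are named by the label of their libraries throughout. Other genes hold 37.1% of the 31-base stretches of *Pgam1*, between which kallisto, the authors' counting tool, has to divide reads. The most counted of them, the pseudogene *Pgam1-ps2*, had at most 150 counts in a library against at least 8847 for *Pgam1*.

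The labelled cell type was checked against marker genes. *Cd4* had 775, 804 and 732 CPM in the scrambled libraries and 650, 651 and 697 CPM in the *Pgam* ASO libraries. Of 7 T cell markers, all 7 were tested, 0 were called higher and 2 were called lower, *Cd28* (log2 fold change -0.66, edgeR adjusted p = 0.00183) and *Cd5* (-0.49, edgeR adjusted p = 0.0193, but 0.0678 without scrambled replicate 1 and 0.106 without *Pgam* ASO replicate 2). Their summed level was 2806, 3019 and 2617 CPM against 2273, 2275 and 2387 CPM, without overlap and with *Cd4* the most abundant. All of the 7 but *Lck* lay lower in every *Pgam* ASO library than in any scrambled library. *Lck* overlapped between the groups (log2 fold change 0.068, edgeR adjusted p = 0.564). Of 4 Treg markers, *Foxp3* (-1.41) and *Ikzf2* (-0.57) fell and *Il2ra* (0.52), the most abundant of them, rose, with edgeR adjusted p of 0.00567, 0.0484 and 0.0185. *Ctla4*, the other marker, had 539, 662 and 577 CPM against 477, 499 and 486 CPM, with no overlap and an edgeR adjusted p of 0.0575, which DESeq2 (0.0423), no filter on low counts (0.0462) and library size alone (0.043) brought under 0.05. Of the 4 Treg markers, *Foxp3* alone was called with any library left out. *Ikzf2* lost its call without scrambled replicates 1 or 2 or *Pgam* ASO replicates 1 or 2 (edgeR adjusted p from 0.124 to 0.139), and *Il2ra* without scrambled replicate 1 or *Pgam* ASO replicates 1 or 2 (0.0639 to 0.0967). The summed Treg markers stood at 2786, 2682 and 3033 CPM against 3485, 3522 and 3128 CPM, a sum set mostly by *Il2ra*. The part of the lower *Foxp3* in the results below was not tested.

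Markers of other cell types were low. The 2 CD8 T cell markers summed to 11.3, 13.5 and 10.8 CPM in the scrambled libraries and 14.6, 10.9 and 15.7 CPM in the *Pgam* ASO libraries, most of it *Cd8b1*, and *Cd8a* rose (log2 fold change 1.12, edgeR adjusted p = 0.0286, but 0.0989 without scrambled replicate 1 and 0.1004 without *Pgam* ASO replicate 1), while *Cd8b1* went the other way and was not called (log2 fold change -0.20, edgeR adjusted p = 0.454). The 4 B cell markers summed to 8.44, 10.4 and 5.64 CPM against 7.20, 6.93 and 7.10 CPM, led by *Cd79a*, and the 5 myeloid markers to 7.93, 8.70 and 7.74 CPM against 5.96, 5.52 and 7.40 CPM, led by *Cd68*. The 4 mast cell and basophil markers, led by *Cpa3*, summed to 1.07, 1.89 and 1.36 CPM against 4.10, 3.98 and 2.96 CPM. The myeloid and the mast cell sums did not overlap between the groups. The 3 tested myeloid genes went opposite ways and none was called. The log2 fold changes were -0.57 for *Cd68* (edgeR adjusted p = 0.0933) and 0.35 for *Lyz2* (edgeR adjusted p = 0.481). *Itgam*, the other tested myeloid gene, overlapped between the groups (log2 fold change -1.27, edgeR adjusted p = 0.401). *Cpa3*, the only mast cell marker with enough counts, had a log2 fold change of 1.09 and an edgeR adjusted p of 0.0526. It was called with no filter on low counts (0.0399), at least 10 counts in every library (0.0411), limma-voom (0.0469) and without scrambled replicate 2 (0.0415). The 2 NK cell markers, led by *Ncr1*, summed to at most 0.108 CPM in any library, with *Klrb1c* at 0 in all, and the 4 erythroid markers, led by *Hba-a1*, to at most 1.24 CPM, with *Hba-a2* at 0 in all. What these small amounts contribute to the values below was not tested.

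Of the 9 enzymes, 4 rose and 1 fell with *Pgam* ASO. *Gpt2*, *Pycr1*, *Aldh18a1* and *Oat* rose, which covers the alanine transaminase of mitochondria and 3 enzymes that make or use P5C, and *Glul*, the enzyme that makes glutamine, fell. Among all tested genes 8.03% were called higher, 9.15% lower and 17.2% in either direction. The median log2 fold change was 0.35 over the 9 enzymes and -0.0061 over all tested genes. Expression did not overlap between the labels in 6 of the 9, and in 39.5% of all tested genes. As the enzymes were chosen with earlier results of these data known, these shares do not test the set. The count of 5 called genes was 3 without scrambled replicate 1, *Pgam* ASO replicate 1 or *Pgam* ASO replicate 2, and *Gpt2*, *Pycr1* and *Aldh18a1* were called with any of the 6 libraries left out.

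**Figure D1:**
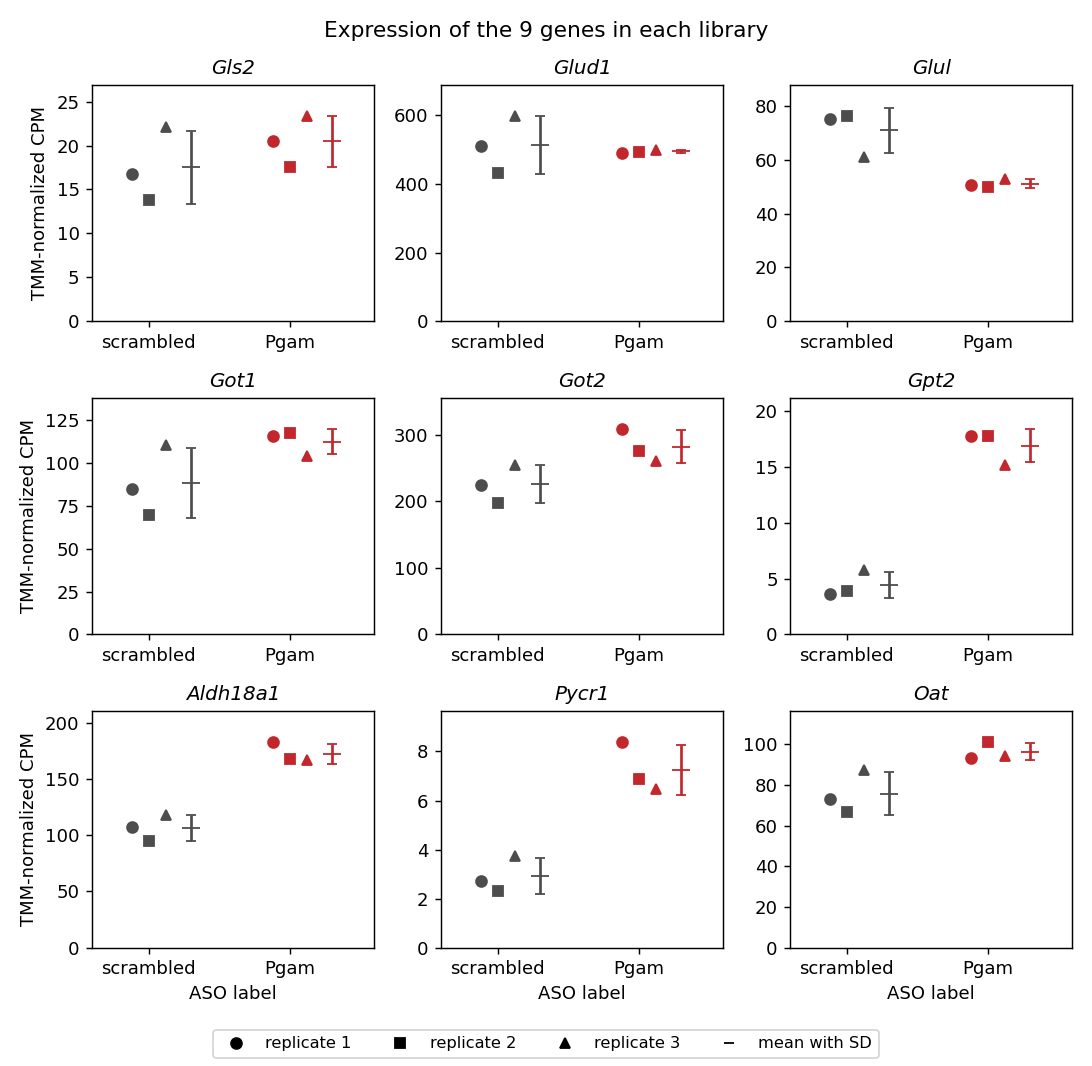
Expression of each of the 9 enzymes in TMM-normalized CPM (vertical axis, from 0) in the 3 scrambled and 3 *Pgam* ASO libraries, with 1 symbol per replicate and bars for the mean with SD. The *Pgam* ASO libraries lie above all scrambled libraries for *Got2*, *Gpt2*, *Aldh18a1*, *Pycr1* and *Oat* and below them for *Glul*, while *Gls2*, *Glud1* and *Got1* overlap.

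*Gls2* and *Glud1*, the glutaminase and the dehydrogenase among the 9, showed no called difference. *Gls2* (ENSMUSG00000044005, chromosome 10, bases 128194457 to 128210004, GENCODE M21 on GRCm38), the liver-type glutaminase, had 16.7, 13.8 and 22.1 CPM in the scrambled libraries and 20.5, 17.5 and 23.4 CPM in the *Pgam* ASO libraries. The 2 ranges overlapped over most of their width, and replicate 3 was the highest under both labels. Its log2 fold change was 0.23 (standard error 0.18, edgeR adjusted p = 0.401). *Glud1* (ENSMUSG00000021794, chromosome 14 from 34310727 to 34345265), the mitochondrial glutamate dehydrogenase, had 511, 431 and 598 CPM against 490, 493 and 499 CPM. All *Pgam* ASO libraries fell inside the scrambled range, and the spread was 494 ± 4.22 CPM (SD, n = 3) under *Pgam* ASO against 514 ± 83.5 CPM (SD, n = 3) under scrambled ASO. The log2 fold change of *Glud1* was -0.055 (standard error 0.11, edgeR adjusted p = 0.759), and it was 0.071 without scrambled replicate 3. Other genes hold 10.4% of the 31-base stretches of *Glud1*, and none of them holds 10% alone.

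*Glul* (ENSMUSG00000026473, chromosome 1 from 153899944 to 153909723) encodes glutamine synthetase, which joins ammonia to glutamate in the cytosol. Its expression was 75.2, 76.4 and 61.2 CPM in the scrambled libraries and 50.6, 49.8 and 52.9 CPM in the *Pgam* ASO libraries. All 3 *Pgam* ASO values lay below the lowest scrambled value, that of replicate 3, and close to each other. *Glul* fell by 0.47 on the log2 scale (standard error 0.10, edgeR adjusted p = 0.0164), from 70.9 ± 8.44 to 51.1 ± 1.61 CPM (SD, n = 3 each), which placed it 2598th from the lowest of 14936 genes. The adjusted p was 0.0772 without scrambled replicate 1, 0.0541 without *Pgam* ASO replicate 1 and 0.0919 without *Pgam* ASO replicate 2 in the same edgeR test. Stretches of 31 bases are shared with other genes for 20.4% of the *Glul* sequence, 15.5% with the pseudogene *Glns-ps1*, which had at most 1 count in any library.

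Transaminases move the amino group of glutamate onto a keto acid, and the aspartate aminotransferases *Got1*, in the cytosol, and *Got2*, in mitochondria, together carry reducing equivalents between the compartments. *Got1* (ENSMUSG00000025190, chromosome 19 from 43499752 to 43524605) had 84.5, 69.7 and 110 CPM in the scrambled libraries and 115, 118 and 104 CPM in the *Pgam* ASO libraries. Scrambled replicate 3 lay inside the *Pgam* ASO range, and the other scrambled libraries lay below it. The log2 fold change was 0.35 (standard error 0.15, edgeR adjusted p = 0.124), with an edgeR adjusted p of 0.0107 without scrambled replicate 3 and 0.00645 with no filter on low counts. *Got2* (ENSMUSG00000031672, chromosome 8 from 95864134 to 95888547) had 224, 198 and 255 CPM against 309, 276 and 261 CPM. Its groups did not overlap, but replicate 3 of each label differed by little. The log2 fold change was 0.32 (standard error 0.11, edgeR adjusted p = 0.0637), while the adjusted p was 0.0212 without scrambled replicate 3, 0.0499 without *Pgam* ASO replicate 3, 0.00953 with no filter on low counts and 0.0363 with DESeq2. *Got2* shares 30.9% of its 31-base stretches, mainly with the noncoding gene *Gm10874* (23.8%) and the pseudogene *Got2-ps1* (20.3%), which had at most 6 and 28 counts in a library.

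The log2 ratio of *Got1* to *Got2* counts, which sets the cytosolic against the mitochondrial form, was -1.41, -1.50 and -1.21 in the scrambled libraries and -1.42, -1.23 and -1.33 in the *Pgam* ASO libraries. The groups overlapped, and the means differed by 0.045 (-1.37 ± 0.15 against -1.33 ± 0.093, SD, n = 3 each, two-sided exact permutation p = 0.8, where 3 libraries against 3 can give no less than 0.1). The sign of this difference turned without scrambled replicate 2 (-0.021) or *Pgam* ASO replicate 2 (-0.0026).

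*Gpt2* (ENSMUSG00000031700, chromosome 8 from 85492576 to 85527560) had the largest fold change of the 9. It encodes the mitochondrial alanine aminotransferase, which passes the amino group of glutamate to pyruvate and yields alanine and α-ketoglutarate. Its counts were 64, 72 and 93 in the scrambled libraries and 285, 277 and 256 in the *Pgam* ASO libraries, or 3.60, 3.89 and 5.76 CPM against 17.7, 17.8 and 15.1 CPM. Every *Pgam* ASO library was far above every scrambled library, and the nearest pair was again replicate 3 of each label. *Gpt2* rose 3.83-fold (log2 fold change 1.94, standard error 0.20, edgeR adjusted p = 0.000731), the 61st highest fold change of 14936. Over the 6 fits with a library left out, its log2 fold change ran from 1.81 to 2.17.

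The cytosolic alanine aminotransferase *Gpt* was set beside it after the values had been seen. *Gpt* had 7.71, 7.99 and 7.19 CPM in the scrambled libraries and 7.14, 5.71 and 7.51 CPM in the *Pgam* ASO libraries, which overlapped (log2 fold change -0.17, standard error 0.18, edgeR adjusted p = 0.543). The log2 ratio of *Gpt2* to *Gpt* counts was -1.10, -1.04 and -0.32 under scrambled ASO and 1.31, 1.64 and 1.01 under *Pgam* ASO. No library of one label reached the range of the other, and the difference between the means was 2.14 (two-sided exact permutation p = 0.1, the lowest possible). These are ratios of counts of genes of different length, so only their difference between labels can be read.

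Proline is made from glutamate in 2 enzyme steps, beside an unaided ring closure between them. *Aldh18a1* (ENSMUSG00000025007, chromosome 19 from 40550257 to 40588463) encodes P5C synthase, the enzyme of the first step. It had 107, 94.6 and 118 CPM in the scrambled libraries and 183, 168 and 167 CPM in the *Pgam* ASO libraries. The lowest *Pgam* ASO library stood well above the highest scrambled one, replicate 3. *Aldh18a1* rose 1.62-fold (log2 fold change 0.70, standard error 0.097, edgeR adjusted p = 0.00273), and its log2 fold change ran from 0.62 to 0.78 with a library left out.

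*Pycr1* (ENSMUSG00000025140, chromosome 11 from 120635712 to 120643769) encodes a mitochondrial P5C reductase, which completes proline. It was counted 48, 43 and 60 times in the scrambled libraries and 135, 107 and 109 times in the *Pgam* ASO libraries, or 2.70, 2.32 and 3.72 CPM against 8.38, 6.87 and 6.45 CPM. The labels were separated in every library, with scrambled replicate 3 the highest of its group and *Pgam* ASO replicate 3 the lowest of its own. The rise was 2.49-fold (log2 fold change 1.31, standard error 0.24, edgeR adjusted p = 0.0091), the 173rd highest of 14936. With a library left out, the log2 fold change ran from 1.17 to 1.53, and the adjusted p reached 0.0497.

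*Oat* (ENSMUSG00000030934, chromosome 7 from 132557478 to 132576398) encodes ornithine aminotransferase, the mitochondrial enzyme that links ornithine to P5C and glutamate. It had 72.9, 66.7 and 87.2 CPM in the scrambled libraries and 93.4, 101 and 94.3 CPM in the *Pgam* ASO libraries. The groups did not overlap, though scrambled replicate 3 came close to the *Pgam* ASO range. *Oat* rose 1.27-fold (log2 fold change 0.35, standard error 0.11, edgeR adjusted p = 0.0471). This call was near its threshold, since the edgeR adjusted p was 0.0535 with library size alone as the scaling and ran from 0.0592 to 0.176 without scrambled replicate 1, scrambled replicate 2 or any 1 *Pgam* ASO library.

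**Figure D2:**
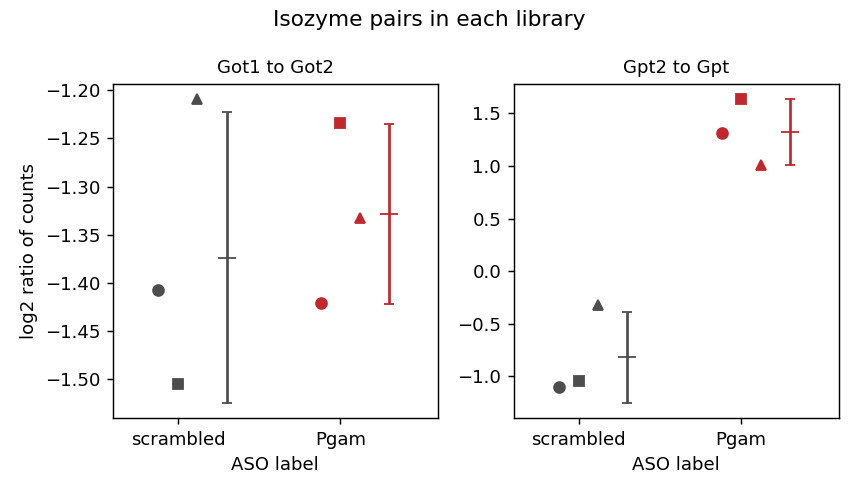
Log2 ratio of the counts of paired isozymes in each library (vertical axes, each with its own range), with 1 symbol per replicate (circle 1, square 2, triangle 3) and bars for the mean with SD. *Got1* to *Got2* overlaps between the labels, while *Gpt2* to *Gpt* is higher in every *Pgam* ASO library than in any scrambled library.

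The libraries of the scrambled group were ordered alike across the enzymes. In 7 of the 9, replicate 2 was the lowest and replicate 3 the highest of the scrambled libraries, and in *Gpt2* replicate 1 was the lowest and replicate 3 the highest. *Glul*, the gene that fell, had the opposite arrangement, with replicate 3 lowest and replicate 2 highest, so scrambled replicate 3 was the nearest to the *Pgam* ASO libraries in each of the 5 called genes. Total counts had the reverse order among these libraries, 18032805 in replicate 2, 17588755 in replicate 1 and 16231127 in replicate 3, and *Foxp3* stood at 371, 282 and 222 CPM in replicates 2, 1 and 3. The *Pgam* ASO libraries had no such common order, with at most 3 of the 9 genes sharing one. Replicate 3 was, however, the lowest of them in *Got1*, *Got2*, *Gpt2*, *Pycr1* and *Aldh18a1*. In *Gls2*, *Glud1* and *Glul* it was the highest. The scrambled order was not particular to these enzymes. Over all genes with enough counts, scrambled replicate 2 differed most from *Pgam* ASO replicates 1, 2 and 3 (chi-square per degree of freedom 88.2, 67.1 and 48.7). Scrambled replicate 3 differed less from *Pgam* ASO replicate 3 (17.3) than from scrambled replicate 2 (27.0). The part of depth or of culture in these orders was not tested.

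To compare levels between genes, CPM were divided by the mean length of each gene's annotated transcripts in kb. In the scrambled libraries *Glud1* was the highest at 427 ± 69.5 CPM per kb (SD, n = 3), followed by *Got2* at 152 ± 19.3 CPM per kb. *Got1* (73.3 ± 17.1), *Glul* (73.2 ± 8.71) and *Aldh18a1* (72.2 ± 7.94 CPM per kb) came next and did not differ from each other beyond their spread. *Oat* followed at 60.8 ± 8.47 CPM per kb and was below *Aldh18a1* in each of the 3 scrambled libraries. *Gls2* was lower at 13.7 ± 3.26 CPM per kb, and *Gpt2* (2.54 ± 0.674) and *Pycr1* (2.45 ± 0.607 CPM per kb) were the lowest and within their spread of each other.

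In the *Pgam* ASO libraries the order of the level per kb began with *Glud1* (411 ± 3.51, SD, n = 3), *Got2* (190 ± 16.5) and *Aldh18a1* (117 ± 6.09 CPM per kb), now above *Got1* at 93.3 ± 6.19 CPM per kb. *Oat* at 77.4 ± 3.37 CPM per kb stood above *Glul* at 52.7 ± 1.66 CPM per kb, and *Gls2* (15.96 ± 2.28), *Gpt2* (9.69 ± 0.858) and *Pycr1* (6.08 ± 0.857 CPM per kb) kept the last places. As a share of the 9 summed per kb, *Aldh18a1* made up 8.25% under scrambled ASO and 12.01% under *Pgam* ASO, *Glul* 8.52% and 5.42%, and *Gpt2* 0.287% and 0.994%. The 2 genes with the highest fold changes were thus the 2 with the lowest levels. The middle places depend on the length used. With the longest transcript, *Got1* stood above *Aldh18a1* under *Pgam* ASO (54.5 against 49.0 CPM per kb), *Oat* stood above *Aldh18a1* under scrambled ASO (35.1 against 30.2 CPM per kb), *Glul* was in the 6th place under both labels, and the first 2 and last 3 places stayed as given.

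**Figure D3:**
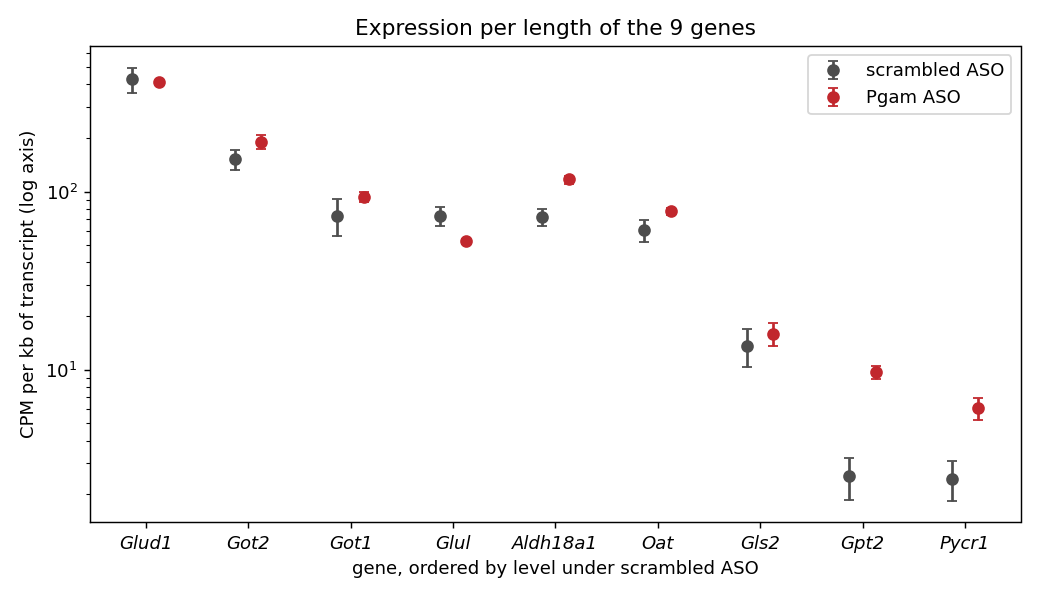
Mean CPM per kb of mean transcript length (log axis) with SD for the 9 enzymes in the 3 scrambled (grey) and 3 *Pgam* ASO (red) libraries, ordered by the level under scrambled ASO. *Glud1* and *Got2* lead under both labels, and *Gpt2* and *Pycr1* are the lowest, at 2.54 and 2.45 against 9.69 and 6.08 CPM per kb.

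The other genes of the pathway were counted from a list of 36, of which 29 had enough counts to be tested. Of these, 7 were called higher and 0 lower by edgeR, with a median log2 fold change of 0.28 beside -0.0061 over all tested genes, and 14 of the 29 did not overlap between the labels. Over all tested genes 8.03% were called higher, 17.2% were called in either direction and 39.5% did not overlap, so the count without overlap is near the background, and the counts by role below are small numbers to read beside these shares. The list, too, was drawn up with earlier results of these data known. Without a filter on low counts 2 genes of the list were called lower and DESeq2 called 1, as did edgeR without *Pgam* ASO replicate 3, and 2 had an unadjusted p under 0.05 in that direction in edgeR. The count of 7 was 2 without scrambled replicate 1, *Pgam* ASO replicate 1 or *Pgam* ASO replicate 2, 4 without scrambled replicate 2 and 13 without *Pgam* ASO replicate 3, 12 of them higher.

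Among 11 tested genes of glutaminase and the amidotransferases, which spend the amide nitrogen of glutamine, 3 were called, all higher. *Asns*, which makes asparagine from aspartate and glutamine, had 19.98, 17.9 and 28.1 CPM in the scrambled libraries and 60.4, 64.5 and 47.8 CPM in the *Pgam* ASO libraries. The labels did not overlap, and once more replicate 3 of each label was nearest to the other. *Asns* rose 2.62-fold (log2 fold change 1.39, standard error 0.17, edgeR adjusted p = 0.00186). *Cad*, which starts pyrimidine synthesis, and *Pfas*, an enzyme of purine synthesis, rose by log2 fold changes of 0.67 (standard error 0.17) and 0.38 (standard error 0.12), with edgeR adjusted p of 0.0286 and 0.047.

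Of 7 tested genes among the other transaminases, 2 were called, both higher. *Psat1*, which uses glutamate as the amino donor in serine synthesis, had 180.5, 142 and 215 CPM in the scrambled libraries and 357, 340 and 296 CPM in the *Pgam* ASO libraries. No scrambled library reached the lowest *Pgam* ASO value. *Psat1* rose 1.84-fold (log2 fold change 0.88, standard error 0.14, edgeR adjusted p = 0.00513), and *Bcat1*, the cytosolic transaminase of branched-chain amino acids, rose as well (log2 fold change 0.59, standard error 0.14, edgeR adjusted p = 0.0216).

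Among 4 tested genes of proline and P5C enzymes, *Pycr3*, a cytosolic P5C reductase named *Pycrl* in the annotation, was the 1 called. It rose from 26.1 ± 2.005 to 36.5 ± 3.63 CPM (SD, n = 3 each, log2 fold change 0.49, standard error 0.11, edgeR adjusted p = 0.0208). Of 6 mitochondrial carriers, *Slc25a12*, an aspartate and glutamate carrier, was called, from 96.2 ± 1.25 to 123 ± 7.71 CPM (SD, n = 3 each, log2 fold change 0.36, standard error 0.08, edgeR adjusted p = 0.0191). *Aldh5a1*, which acts late in the breakdown of the glutamate product GABA, was the only tested gene of 5 in the glutamate and ornithine branch. It had 1.18, 2.75 and 3.41 CPM against 0.870, 1.03 and 1.42 CPM, which overlapped (log2 fold change -1.13, standard error 0.42, edgeR adjusted p = 0.0878). *Aldh5a1* was called lower with no filter on low counts (edgeR adjusted p = 0.0318). With any 1 of the 6 libraries left out, *Asns* and *Psat1* were called each time, and the other 5 of the 7 lost the call in at least 3 of the 6 fits.

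**Figure D4:**
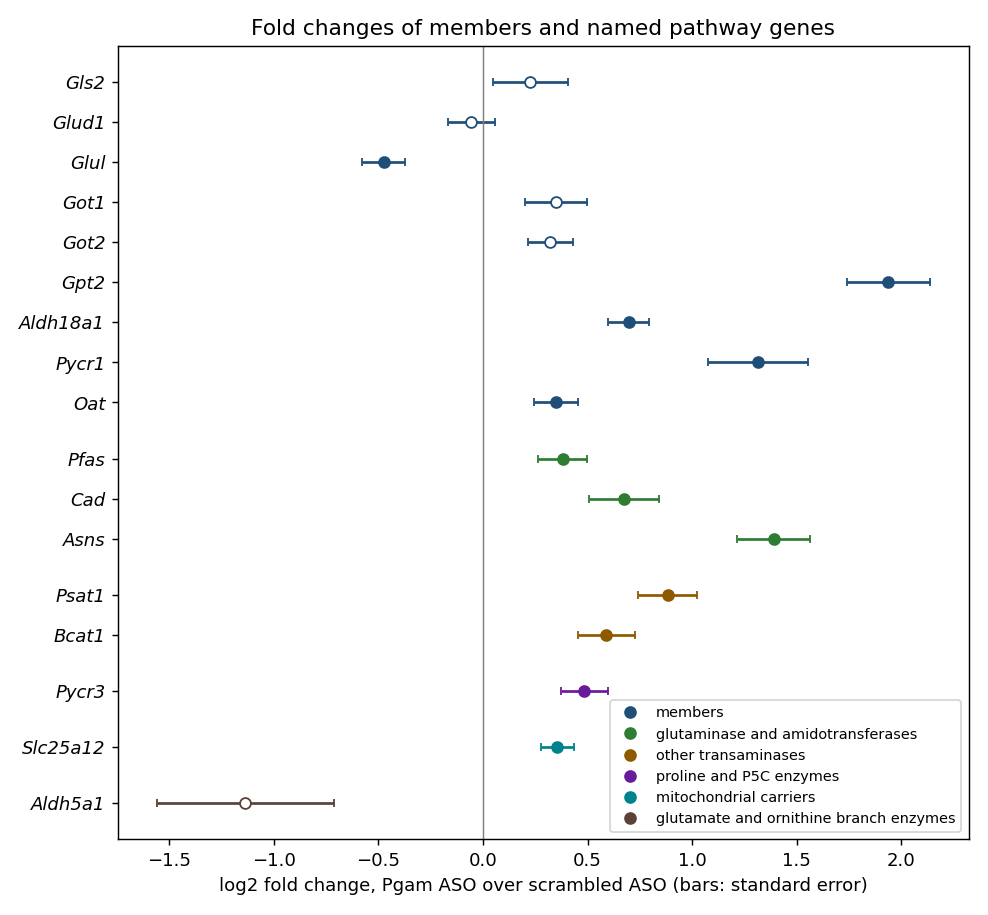
Log2 fold change (horizontal axis, *Pgam* ASO over scrambled ASO, edgeR) with its standard error for the 9 enzymes and for the pathway genes that were called or were in a role group with 3 or fewer tested, coloured by role, with filled points for an adjusted p under 0.05. *Gpt2* at 1.94, *Asns* at 1.39 and *Pycr1* at 1.31 lie farthest to the right, and *Glul* at -0.47 is the called gene to the left of 0.

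The promoters of the 3 enzymes with the highest fold changes and of *Asns*, a called pathway gene, are shown. RefSeq windows from 250 bases before to 50 after the start were found for 8 of the 9 enzymes and for 28 of the other 36 genes in GRCm38.p6. They were searched on both strands for TGATGNAA, the core of the C/EBP-ATF response element through which ATF4 acts on amino acid genes, and for CACGTG, the E-box that MYC and related factors bind, and which can share at most 2 letters with the first. Of 32851 promoter windows, 3.97% hold the first and 7.15% the second, and no window of the listed genes holds both. These shares are per window. The counts that follow are per gene, and a gene with several windows was counted if any of them held the motif. The first is present in 2 of the 8 enzymes, *Pycr1* and *Got1*, and in 1 of the 28 other genes, *Asns*, and the second in 1 of the 8, *Aldh18a1*, and in 2 of the 28, *Slc25a13* and *Slc25a15*. A match is a run of letters and no evidence of binding. The 250 bases before the start follow in the direction of each gene, with matches in capitals, for *Gpt2* (chr8:85492326-85492575, plus strand), *Pycr1* (chr11:120643749-120643998, minus strand), *Aldh18a1* (chr19:40588464-40588713, minus strand) and *Asns* (chr6:7693210-7693459, minus strand).
Gpt2: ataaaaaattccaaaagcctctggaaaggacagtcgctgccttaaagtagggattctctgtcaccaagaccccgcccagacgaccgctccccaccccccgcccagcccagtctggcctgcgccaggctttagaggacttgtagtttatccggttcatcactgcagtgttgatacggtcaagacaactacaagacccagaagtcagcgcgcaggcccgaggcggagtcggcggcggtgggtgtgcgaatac
Pycr1: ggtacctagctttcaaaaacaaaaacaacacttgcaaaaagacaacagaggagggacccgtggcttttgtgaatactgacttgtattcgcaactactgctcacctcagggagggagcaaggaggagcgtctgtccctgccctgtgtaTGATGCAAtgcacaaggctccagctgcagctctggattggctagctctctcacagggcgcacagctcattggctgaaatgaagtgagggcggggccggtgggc
Aldh18a1: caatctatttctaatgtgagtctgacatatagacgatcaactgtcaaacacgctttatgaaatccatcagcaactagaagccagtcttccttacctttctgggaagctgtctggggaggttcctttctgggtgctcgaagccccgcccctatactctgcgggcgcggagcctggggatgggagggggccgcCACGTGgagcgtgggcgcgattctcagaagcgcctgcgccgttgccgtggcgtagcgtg
Asns: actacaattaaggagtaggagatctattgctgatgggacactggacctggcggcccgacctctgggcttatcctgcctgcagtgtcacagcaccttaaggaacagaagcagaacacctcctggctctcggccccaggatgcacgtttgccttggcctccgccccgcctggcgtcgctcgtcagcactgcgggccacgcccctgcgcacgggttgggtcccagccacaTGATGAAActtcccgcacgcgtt
The match begins 103 bases before the start in *Pycr1*, 59 in *Aldh18a1* and 23 in *Asns*, and *Gpt2*, the gene with the highest fold change of the 9, has neither run of letters in its window. In *Got1*, whose expression was not called, the first motif lies on the reverse strand 102 bases before the start.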

How the data were processed

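Per Ensembl gene and library, the authors had deposited an estimated count for the 6 libraries, made with kallisto on GRCm38 according to the submitters' processing notes, as whole numbers without normalization. The kallisto version, annotation release and summing to genes are not given in the sources used here. Groups and replicate numbers were taken from the sample titles. Of 56748 genes, 52125 were found in GENCODE M21, which gave coordinates, transcript lengths and shared 31-base stretches.

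Counts were tested in R 4.3.3 with edgeR 4.0.16 (filterByExpr, TMM, robust quasi-likelihood test, two-sided, Benjamini-Hochberg over 14936 genes), and the procedure was tested on simulated data. Ratios were compared by exact permutation. Alternatives were DESeq2 1.42.0, limma-voom (limma 3.58.1), RLE factors, no filter, at least 10 counts in every library, a replicate block, each library left out, an adjusted p under 0.01, sums with genes sharing at least 10% of their stretches, a prior count of 2 for ratios, and the longest transcript for levels. Library size alone and the *Gpt2* to *Gpt* ratio were added after the data were seen. No 2 libraries agreed within sampling noise.

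Members and lists were chosen with earlier results of these data known. Named were the 9 members, their listed pathway genes if called or in a role group with 3 or fewer tested, targeted genes, read-sharing genes and cell type markers. *Slc25a13*, *Slc25a15* and *Gpt* were named after their values were seen. Other genes outside this rule were counted but not named, and 1 planned ratio is not reported here.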

Additional observations from a re-analysis of the deposited data

How the results depend on the processing

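With 3 libraries a group, single calls near the threshold depend on each library. At an adjusted p under 0.01, 3 of the 9 enzymes and 2 of the other pathway genes were called in place of 5 and 7. The other pathway genes called were 12 with DESeq2 and 15 without a filter on low counts. Leaving out a library in turn gave 3 to 7 enzymes and 2 to 13 other pathway genes, a log2 fold change of -0.17 to 0.071 for *Glud1* and a difference of -0.021 to 0.13 in the *Got1* to *Got2* log2 ratio. Such fits hold fewer libraries, and the cause of these ranges was not tested. No pairing by equal replicate numbers showed, with correlations of their deviations of 0.0997, -0.042 and -0.31 for numbers 1, 2 and 3. Not every library correlated best with its own number. These correlations cannot tell whether equal numbers shared an animal. With the replicate block, 4 of the 9 enzymes (not *Oat*, edgeR adjusted p = 0.0873) and 4 of the other pathway genes were called. The block ended the calls of *Pfas*, *Pycr3* and *Slc25a12* (edgeR adjusted p = 0.0765, 0.0561 and 0.0571). It also ended those of *Ikzf2* and *Cd8a* (edgeR adjusted p = 0.0745 and 0.0699), and the paired difference was 0.045 for the *Got1* to *Got2* ratio. Limma-voom, RLE factors, at least 10 counts in every library and sums with read-sharing genes each called 5 enzymes, library size alone 4, DESeq2 6 and no filter on low counts 7. *Gpt2*, *Pycr1* and *Aldh18a1* were called with the same sign in all fits at an adjusted p under 0.05. Genes with few counts, such as *Pycr1* with 43 to 135 counts a library, are measured less precisely than *Glud1*.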
